A study of Mus musculus with 2 samples.

Results

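The cytosolic ribosomal proteins were taken as the gene rows with values whose symbol fits a naming pattern for a protein of the large (Rpl) or small (Rps) subunit, a protein of the stalk (Rplp0, Rplp1, Rplp2) or Rpsa. The pattern allows few letters after the number, so it leaves out the S6 kinases, rows named as pseudogenes and Rpl36al, and it uses no measured value. It found 84 of the 23361 rows with values, 51 of the large subunit with the stalk and 33 of the small subunit. A row for Rps3a carried no value in either library and was not counted. RNA-Seq compared brown preadipocytes (D0) with brown adipocytes (D7), and each stage was 1 library.

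The cells of both libraries came from interscapular brown adipose tissue, a heat-producing fat depot, of newborn C57BL/6 mice of either sex, C57BL/6J in the methods of the study. Both received a medium with 10% fetal bovine serum, insulin at 0.1 μM and thyroid hormone (T3) at 1 nM for 4 days before induction. The D0 library was made at induction. For D7, 0.5 mM IBMX (a phosphodiesterase inhibitor), 2 μg/ml dexamethasone (a glucocorticoid) and 0.125 mM indomethacin were added for 2 days, and the cells then stayed in the first medium until day 7. The labels call the cells primary, whereas the methods of the study describe preadipocytes immortalized with large T antigen and another medium, and whether cells of several animals were pooled is not given in the sources used here. Adipocyte markers separated the libraries. Their summed level over 7 genes was 81.6 FPKM (fragments per kb of transcript per 1000000 reads) at D0 and 17949 FPKM at D7, with 7 of 7 genes above their D0 level.

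A cytosolic ribosome translates nuclear mRNAs and holds 1 copy of most of its proteins beside the ribosomal RNAs. The small subunit reads the mRNA, and the large subunit joins the amino acids and releases the chain through a tunnel. The acidic stalk of the large subunit recruits elongation factors. Most mRNAs of ribosomal proteins begin with a C inside a run of pyrimidines, the 5′ terminal oligopyrimidine tract. Through this tract their translation depends on mTOR, the kinase that also senses insulin and amino acids, and on the binding protein Larp1. Mammalian genomes carry many intronless copies of these genes, so short reads from them are hard to place.

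The start sites of several members are shown because this tract is the sequence feature that the genes are best known to share. Each line gives 15 bases before and 15 after the annotated start in RefSeq on GRCm38.p6 (mm10), 5′ to 3′ on the gene's strand. Capitals mark a run of at least 8 C or T that overlaps the 5 bases on either side of the start.
Rpl7a, chr2:26910792-26910821, plus strand: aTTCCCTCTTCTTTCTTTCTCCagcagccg
Rpl27a, chr7:109519180-109519209, plus strand: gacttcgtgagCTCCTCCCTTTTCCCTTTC
Rpl15, chr14:18270972-18271001, minus strand: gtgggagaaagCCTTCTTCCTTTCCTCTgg
Rplp2, chr7:141447636-141447665, plus strand: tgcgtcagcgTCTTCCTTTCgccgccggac
Rps18, chr17:33955651-33955680, minus strand: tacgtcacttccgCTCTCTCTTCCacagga
Rps6, chr4:86857353-86857382, minus strand: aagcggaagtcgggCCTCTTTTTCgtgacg
Rpl22l1, chr3:28805493-28805522, plus strand: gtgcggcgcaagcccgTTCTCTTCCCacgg
Rplp0, chr5:115559452-115559481, plus strand: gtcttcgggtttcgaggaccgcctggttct
Rps3, chr7:99483695-99483724, minus strand: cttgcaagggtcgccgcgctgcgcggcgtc
Rpl39l, chr16:10170213-10170242, plus strand: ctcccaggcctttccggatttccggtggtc
The last 3 held no such run at the annotated start and were chosen to stand beside the others. Of the 84 members, 63 had a promoter of 300 bases in the RefSeq table, with 75 promoters in all. A run was found in 24 of the 75 (32%), against 9.72% of 32851 promoters of all genes. The letters CCGGAAG, the core recognised by ETS factors, stood on either strand in 27 of the 75 (36%), against 8.86% of all promoters, and on the reverse strand the motif can overlap a pyrimidine run. These matches describe the annotated sequence, and start sites were not measured in these cells.

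Almost the whole set was lower in adipocytes. The median member stood at 1114 FPKM at D0 and 606 FPKM at D7. Of 82 members above 0 in both libraries, 80 were lower at D7, beside 49.4% of the 14986 genes above 0 in both. The median ratio of D7 to D0 was 0.534 (median log2 ratio −0.90), where over all those genes the median log2 ratio was 0.02. In all, 26 of the 82 members (31.7%) were lower by at least 2.0-fold, the fold used in the study, and 0 were higher by at least 2.0-fold. The background shares were 13.2% lower and 18.5% higher by at least 2.0-fold. Among the 5305 genes with at least 10 FPKM in both libraries, 57% had a ratio under 1, 8.5% were lower and 8.67% higher by at least 2.0-fold. There are no replicates, so no p-value is given and no difference could be set against a spread between cultures. The intervals below are exact 95% intervals on recovered numbers of fragments, hold the error of counting alone, so they set 1 library against the other and not 1 stage against the other.

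**Figure D1:**
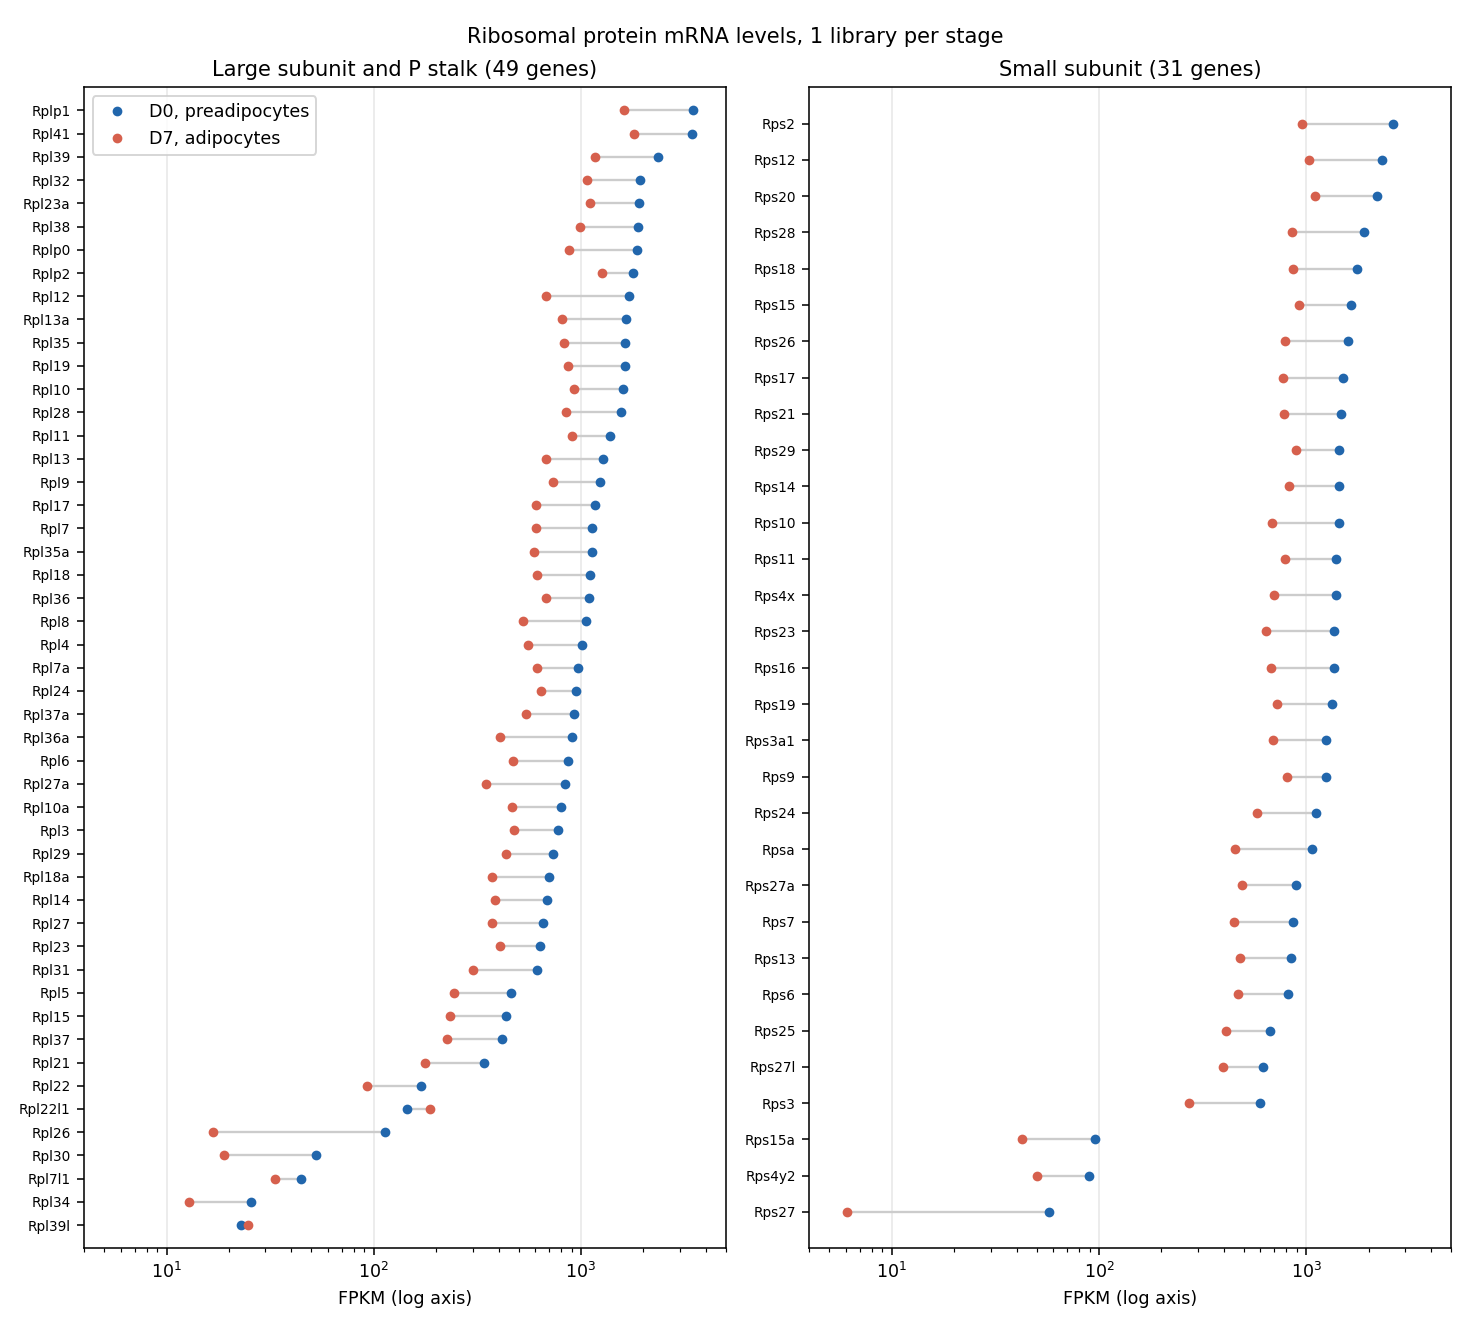
FPKM of 80 ribosomal protein genes above 0 in both libraries (horizontal log axis), with 49 genes of the large subunit and stalk on the left and 31 of the small subunit on the right. Blue points are D0 and red points D7, 1 library each, and genes are ordered by level at D0. The red point lies left of the blue one in 78 of these 80 genes, with Rpl22l1 and Rpl39l as the exceptions.

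The members moved by a similar factor. Ratios of 66 of the 82 members (80.5%) lay between 0.45 and 0.65, where 11.8% of all genes above 0 in both libraries and 13.3% of those with at least 10 FPKM lay. The interquartile range of the log2 ratios was 0.22 in the members and 1.24 over all genes. Levels kept their order, with a Spearman correlation of 0.971 and a Pearson correlation of log2 FPKM of 0.966 between the libraries over the 82 genes, which share both libraries and their gene lengths. Among the 71 members with at least 200 FPKM in both libraries all 71 were lower at D7, with ratios from 0.363 to 0.708. The 186 other genes at that level had a median ratio of 0.871, and 113 of them were lower. The 10 members above 0 in both libraries and under 200 FPKM at D0 were more scattered, with ratios from 0.106 to 1.28.

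The share of the summed FPKM in these genes was 18.4% at D0 and 9.52% at D7. The sums were 94291 of 512110 FPKM and 49719 of 522334 FPKM. They took 51 of the 100 highest rows at D0 and 27 at D7. Because the transcripts are short, their share of the recovered fragments was smaller, about 6.10% at D0 and 3.14% at D7. These shares rest on annotated lengths. Rps20, with a length of 3706 bp but a deposited locus of chr4:3834473-3835600, was given 166987 of the 1310617 member fragments at D0. Genes with large gains at D7 included Fabp4, a lipid carrier of adipocytes, at 20.3 and 14391 FPKM, and Scd1, a fatty acid desaturase, at 64.9 and 10775 FPKM. With the 10 highest other genes of each library left out of the total, the share was 19.7% at D0 and 10.6% at D7. In bulk RNA, fewer cells of a type and less of an RNA per cell cannot be told apart, and FPKM is a share of the library and not an amount per cell.

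The small subunit had the lower median, 0.511 over 33 genes with 15 lower by at least 2.0-fold. The large subunit with the stalk had 0.543 over 49 genes with 11 lower by at least 2.0-fold. The middle 50% of ratios ran from 0.475 to 0.563 in the small subunit and from 0.508 to 0.584 in the large one, so the ranges overlapped. The count past 2.0-fold depends on where the threshold falls, since 11 members had ratios between 0.49 and 0.51. Just inside it stood Rps20 at 2205 and 1097 FPKM (ratio 0.497) and Rpl39 at 2341 and 1167 FPKM (0.498). Just outside stood Rpl34 at 25.5 and 12.8 FPKM (0.501) and Rps4x at 1385 and 698 FPKM (0.504). Of 81 members with an interval, 15 lay wholly below 0.5, 48 wholly above, and 18 held 0.5. This sorting is approximate, since an annotated length that is too long makes an interval too narrow. The length used for Rps20 exceeds its deposited locus.

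**Figure D2:**
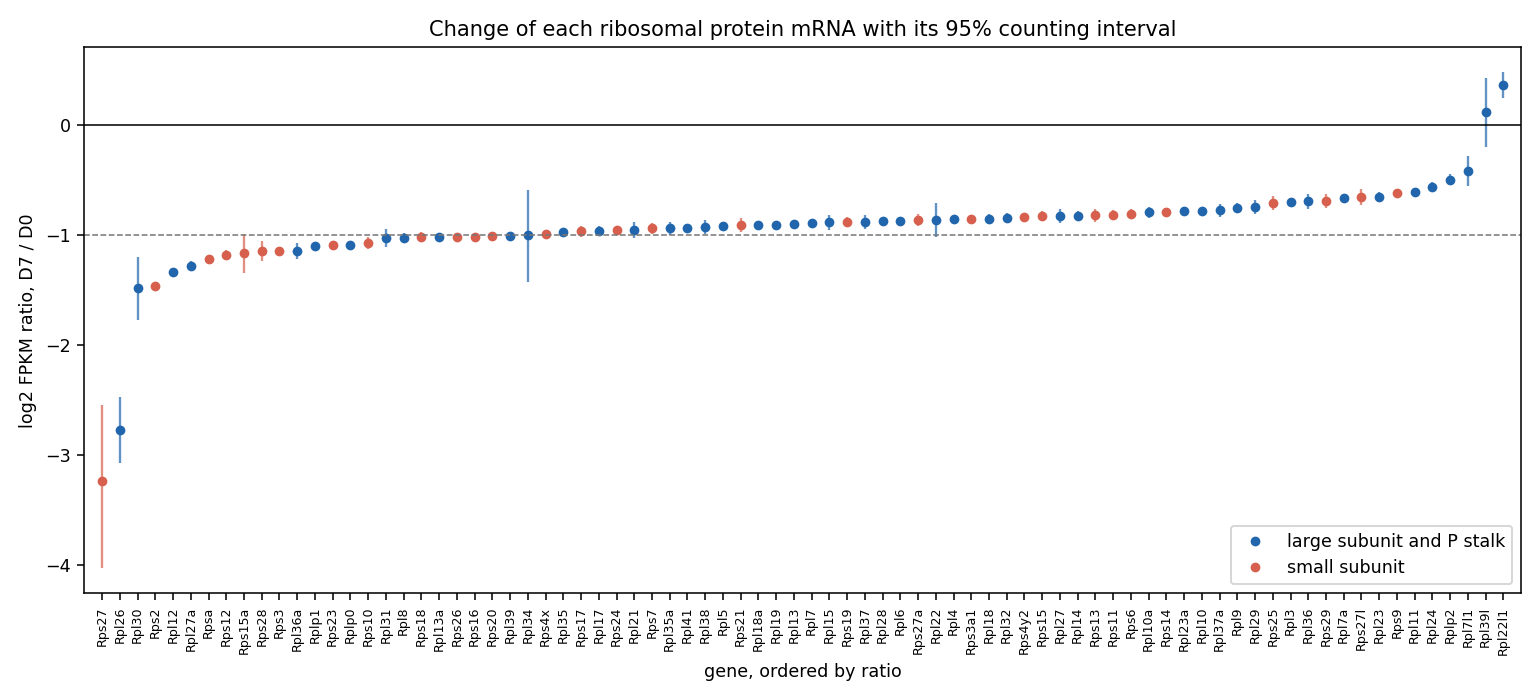
Log2 ratio of FPKM at D7 to D0 for 80 ribosomal protein genes, ordered by ratio, 1 library per stage. Points are ratios, bars exact 95% intervals on recovered fragments (counting error only, none for Rps4y2, whose length was not found), the dashed line marks 2.0-fold lower, and 24 points lie under it.

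The proteins of the stalk did not share 1 ratio. Rplp1, which had the highest level of any member at D0, stood at 3459 FPKM at D0 and 1610 FPKM at D7, a ratio of 0.465 (interval 0.454 to 0.477). Rplp0, which anchors the stalk on the ribosomal RNA, stood at 1871 and 878 FPKM, a ratio of 0.470 (0.462 to 0.478). Rplp2, the partner of Rplp1 in the stalk dimers, stood at 1785 and 1264 FPKM, a ratio of 0.708 (0.685 to 0.732). The interval of Rplp2 did not overlap those of the other 2, and Rplp2 had the highest ratio of the members with at least 200 FPKM. Rpl12, which sits at the base of the stalk, had 1701 FPKM at D0 and 675 FPKM at D7, a ratio of 0.397. All coding windows of Rpl12 occur in other genes.

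In the body of the large subunit, Rpl41, the shortest ribosomal protein, stood at 3446 and 1803 FPKM, a ratio of 0.523. Rpl39, a protein of the exit tunnel, had 2341 and 1167 FPKM. Rpl27a was among the lowest ratios, with 839 FPKM at D0, 346 FPKM at D7 and a ratio of 0.413. All coding windows of Rpl27a occur in other genes. Its start carries the longest run but one of the sequences shown, whereas Rpl7a, with the longest, stood at 969 and 612 FPKM and a ratio of 0.632. Members with a run at an annotated start had a median ratio of 0.530 (24 genes), those without 0.535 (37 genes) and the remainder, whose promoters RefSeq did not supply, 0.539 (21 genes). Rpl24, which forms a bridge between the subunits, had 949 and 641 FPKM and a ratio of 0.675. Other large subunit genes past 2.0-fold were Rpl36a (903 and 408 FPKM), Rpl31 (613 and 300.4 FPKM) and Rpl8 (1062 and 522 FPKM).

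Rpl5 and Rpl11 bind the 5S ribosomal RNA and, when free, the p53 regulator Mdm2. Rpl5 stood at 459 and 243 FPKM, a ratio of 0.529 (0.516 to 0.543). Rpl11 stood at 1377 and 905 FPKM, a ratio of 0.657 (0.642 to 0.673). Their intervals did not overlap, but all coding windows of both genes also occur in other genes. Rps19, the gene most often mutated in Diamond-Blackfan anaemia, in which Rpl5 and Rpl11 are also mutated, had 1332 and 722 FPKM and a ratio of 0.542.

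In the small subunit, the lowest ratio of a highly expressed member was that of Rps2, a protein near the entry of the mRNA channel. It stood at 2620.5 FPKM at D0 and 950.1 FPKM at D7, a ratio of 0.363 (0.356 to 0.369), and 72.0% of its coding windows of 90 bases occur in transcripts of 41 other genes. Rpsa, also known as the laminin receptor, had 1060 and 455 FPKM and a ratio of 0.429. Rps12 stood at 2329.8 and 1030.2 FPKM, a ratio of 0.442, and all its coding windows occur in other genes. Rps3, which also lines the mRNA entry, is the least ambiguous of the lower ones, since none of its coding windows occur elsewhere. It had 600.1 FPKM at D0 and 271 FPKM at D7, a ratio of 0.451 (0.440 to 0.463).

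Rps6 is the substrate of the S6 kinases that mTOR activates. It stood at 818 and 466 FPKM, a ratio of 0.570 (0.552 to 0.588). Other small subunit genes past 2.0-fold were Rps15a, Rps28, Rps23, Rps10, Rps18, Rps26, Rps16 and Rps20, with ratios from 0.445 to 0.497, besides Rps27, which is described with its copy. The highest ratio in the small subunit belonged to Rps9, at 1242 and 809 FPKM (0.651).

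Some ribosomal proteins are made as fusions with ubiquitin or a ubiquitin-like protein. Rps27a, a fusion with ubiquitin inside the naming pattern, stood at 892 and 489 FPKM, a ratio of 0.548 (0.528 to 0.569). Fau, the fusion of the small subunit protein eS30 with a ubiquitin-like protein, is outside the pattern and had 1079 and 680 FPKM and a ratio of 0.630. Rack1, listed under its older symbol Gnb2l1 and also outside the pattern, is a signalling scaffold on the small subunit and had 1199.5 and 535 FPKM, a ratio of 0.446.

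Paralogs of ribosomal proteins, which often replace the usual protein in some tissues, held the 3 highest ratios. Rpl22l1 (chr3:28805436-28807424, plus strand) stood at 145 FPKM at D0 and 186 FPKM at D7, a ratio of 1.28 (1.19 to 1.39). Its usual counterpart Rpl22, an RNA-binding protein of the large subunit, stood at 169 and 92.7 FPKM, a ratio of 0.550 (0.493 to 0.612). Rpl22l1 was thus 86.1% of Rpl22 at D0 and 201% at D7. Of the members with an interval, it was the only 1 whose interval lay above 1. Its values are uncertain, since 63.6% of its coding windows occur in the transcribed pseudogene Gm15421, whereas 1.01% of those of Rpl22 occur elsewhere.

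Rpl39l, best known from testis, stood at 22.8 and 24.6 FPKM, a ratio of 1.08 with an interval of 0.870 to 1.34 that includes 1. It was 0.972% of Rpl39 at D0 and 2.11% at D7. Rpl7l1, a relative of Rpl7, had 44.4 and 33.3 FPKM (0.749), while Rpl7 had 1130 and 609 FPKM (0.539). Rps27l, a target of p53, stood at 622 and 395 FPKM, a ratio of 0.636. Rpl36al, which is outside the naming pattern, had 370.2 and 227 FPKM (0.614) beside Rpl36a at 0.452. Rps4y2 had 89.4 and 50.2 FPKM (0.561) beside Rps4x at 0.504.

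The muscle and heart paralog Rpl3l was listed at 0 at D0 and at 0.0639 FPKM at D7, about 1 fragment. A count of 0 allows up to 0.117 FPKM at D0, and the D7 value was under its limit of 0.138 FPKM, so no fold is given. Rpl10l, a retrogene known from testis, was listed at 0 in both libraries, which allows up to 0.166 FPKM at D0 and 0.195 FPKM at D7. Their usual genes stood at 771 and 476 FPKM (Rpl3) and at 1590 and 923 FPKM (Rpl10).

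The 3 lowest ratios of all belonged to genes with a second row at the same deposited locus. Rps27 (chr3:90212522-90213651, minus strand) stood at 57.2 FPKM at D0 and 6.09 FPKM at D7, a ratio of 0.106 (0.0614 to 0.171). The row Gm9846 carried the same deposited locus but names an intronless copy on chromosome 9, now Rps27rt. It stood at 1923 and 1082 FPKM, a ratio of 0.563, and all coding windows of Rps27 occur in that copy. The sum of both rows had a ratio of 0.550, close to the median member.

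Rpl26 (chr11:68901583-68906989, plus strand) stood at 113 and 16.7 FPKM, a ratio of 0.147 (0.119 to 0.181). The row Gm15772, an intronless copy on chromosome 5 deposited with the locus of Rpl26, had 1595 and 912 FPKM, and the sum had a ratio of 0.544. Rpl30 (chr15:34440505-34443640, minus strand) stood at 52.7 and 18.9 FPKM, a ratio of 0.358. Its row Gm12191, a copy on chromosome 11, had 1053 and 594 FPKM, and the sum had a ratio of 0.555. Rpl34 stood at 25.5 and 12.8 FPKM and its row Rpl34-ps1, a copy on chromosome 6, at 1563 and 794 FPKM, with a summed ratio of 0.508. In all 4 pairs the row of the copy held most of the level and had a ratio between 0.508 and 0.572. With these rows added to their genes, Rps2 had the lowest ratio of any member, and 23 instead of 26 members were lower by at least 2.0-fold.

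**Figure D3:**
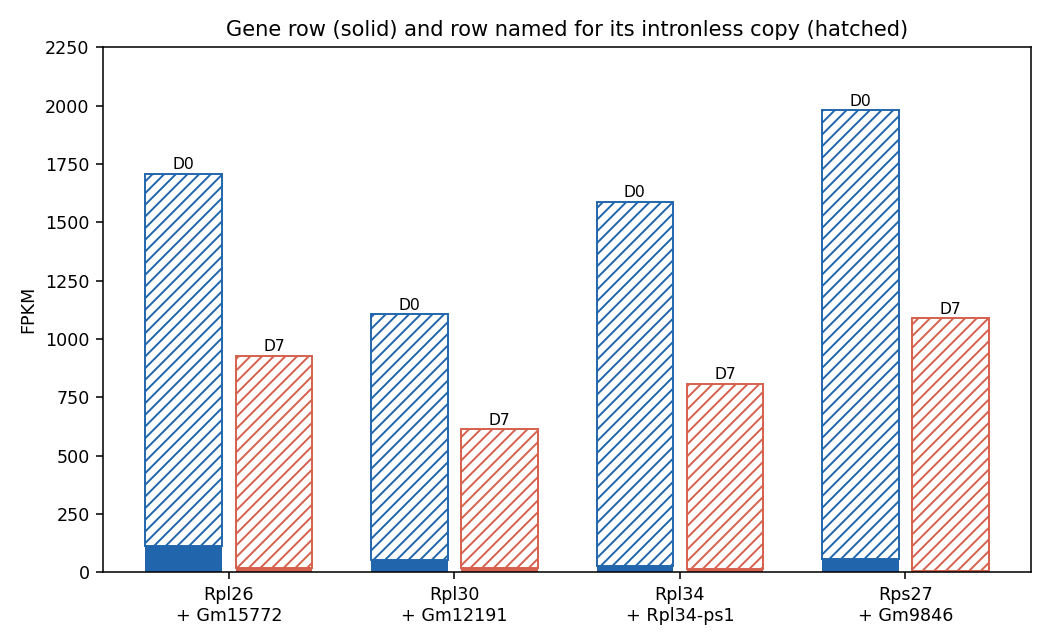
FPKM (linear axis from 0) of 4 ribosomal protein genes and of the rows that name an intronless copy but carry the same deposited locus, 1 library per stage. Solid parts are the gene rows, hatched parts the copy rows, blue D0 and red D7. The summed bars at D7 are 0.508 to 0.555 of those at D0.

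How reads that match several places were assigned is not given in the sources used here, so sharing of sequence was measured for the members. It could not be measured for Rps4y2, whose transcript was not found, and Rpl41, whose coding sequence of 75 bases is shorter than a window. Windows of 90 bases, the read length of the sequencing, were taken from the coding sequence. They were searched without mismatch in transcripts of other genes (GENCODE M21), leaving out genes that overlap the member. By this measure Rpl13a shared 5.74% of its windows, although 97.3% of them occur in the overlapping gene Gm45713. Under 10% of windows were shared in 13 members, 11 of them above 0 in both libraries, and their median ratio was 0.550. It was 0.538 in the 28 members with at least 90% shared and 0.533 in the 41 between. Ratios of these 11 ran from 0.451 (Rps3) to 1.08 (Rpl39l), with Rpl8 (0.492), Rpl13a (0.494), Rps21 (0.532), Rpl22 (0.550), Rpl4 (0.553), Rpl32 (0.557), Rps27l (0.636) and Rpl7l1 (0.749) between them. The Spearman correlation between shared windows and the log2 ratio was −0.08 over 80 members, and that between coding length and the log2 ratio was 0.04 over 81 members.

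**Figure D4:**
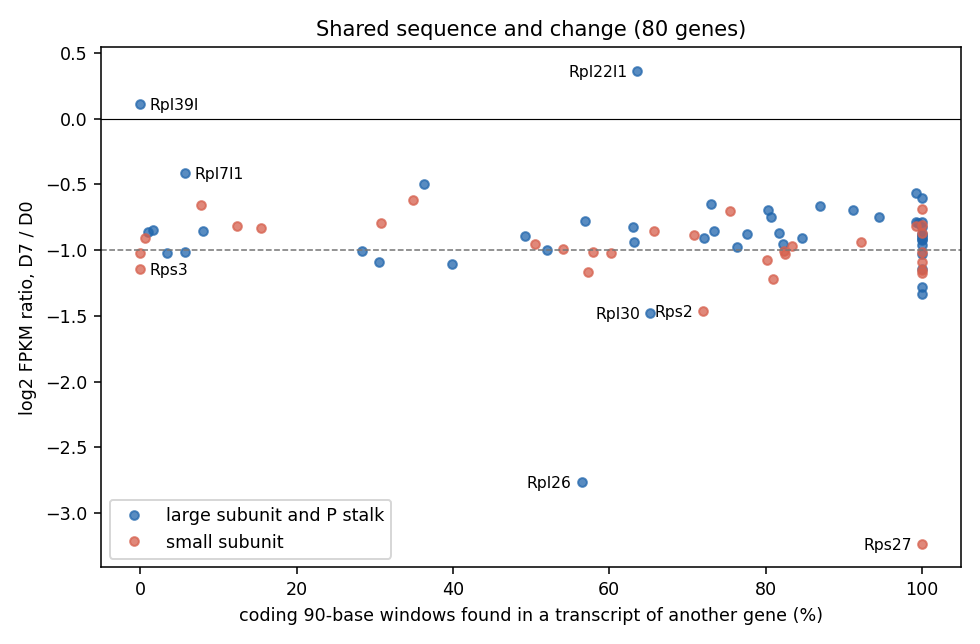
Share of coding 90-base windows found in a transcript of another gene that does not overlap the member (horizontal axis, %) against the log2 ratio of FPKM at D7 to D0 for 80 ribosomal protein genes, 1 library per stage. Blue points are the large subunit with the stalk and red points the small subunit. Most points lie near −1 at every degree of sharing, and Rps27 and Rpl26 lie far below.

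Some of these genes are common references in qPCR. Rplp0 (0.470), Rpl13a (1642 and 811 FPKM, 0.494), Rps18 (1750 and 862 FPKM, 0.493) and Rpl32 (1916 and 1067 FPKM, 0.557) were all lower at D7. Other reference genes differed widely. Actb, cytoskeletal actin, had 1620 and 539 FPKM (0.333), Ppia, cyclophilin A, 2586 and 1923.0 FPKM (0.744), and Gapdh, a glycolytic enzyme, 1787 and 2581 FPKM (1.44). Sdha, a subunit of succinate dehydrogenase, had 84.3 and 418 FPKM (4.96). Of the 10 reference genes outside the ribosome, 6 were lower at D7, 1 of them by at least 2.0-fold, and 1 was higher by at least 2.0-fold.

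Mitochondrial ribosomal proteins, which build the separate ribosome of mitochondria, had the opposite direction. Of 76 genes, 70 were higher and 6 lower at D7, of which 12 and 1 passed 2.0-fold, and the median log2 ratio was 0.61. Over all genes above 0 in both libraries, 18.5% were higher and 13.2% lower by at least 2.0-fold. They ranged from Mrpl52 (187 and 84.0 FPKM, log2 ratio −1.15) to Mrpl12 (64.2 and 225 FPKM, log2 ratio 1.81). Their summed level was 2819 FPKM at D0 and 4042 FPKM at D7. The proteasome, another large complex of many subunits, had a median log2 ratio of −0.06 over 38 genes above 0 in both libraries, with 1 lower and 2 higher by at least 2.0-fold. With at least 1 FPKM in both libraries, its genes ranged from Psmb8 (13.2 and 7.52 FPKM, 0.568) to Psma1 (82.2 and 194.8 FPKM, 2.37). The interquartile range of the log2 ratios was 0.53 in the mitochondrial list and 0.42 in the proteasome, beside 0.22 in the cytosolic set.

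Factors that assemble ribosomes were also mostly lower. Of 64, 61 (95.3%) were lower at D7, beside 49.4% of all genes above 0 in both libraries. The median log2 ratio was −0.44. By at least 2.0-fold, 7 (10.9%) were lower, near the 13.2% of all those genes, and 1 was higher, beside 18.5%. Nop56, a core protein of the particles that methylate ribosomal RNA, had 43.5 and 15.2 FPKM (0.349), and their methyltransferase fibrillarin (Fbl) 52.8 and 23.2 FPKM (0.440). Npm1, a nucleolar chaperone, had 286 and 194.8 FPKM (0.682), and Rcl1 was highest with 10.6 and 26.4 FPKM (2.50). The list of RNA polymerase I, which transcribes ribosomal RNA, and its transcription factors had 11 of 15 genes lower. That was 73.3%, beside 49.4% of all genes above 0 in both libraries. In the polymerase list 0 were past 2.0-fold in either direction, and the median log2 ratio was −0.22. This list ranged from Polr1e (5.63 and 3.09 FPKM, 0.550) to Ttf1 (4.34 and 4.99 FPKM, 1.15).

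The list of elongation factors had a lower median ratio than that of initiation factors. The elongation list also holds the termination factors Etf1 and Gspt1 and, outside these roles, Tpt1, Btf3, Naca and Eef1e1. All 14 of its genes were lower at D7, with a median log2 ratio of −0.55. By at least 2.0-fold 3 (21.4%) were lower, Eef1e1 (0.488) among them, beside 13.2% of all genes above 0 in both libraries. Eef1g had 882 and 323 FPKM (0.366), Eef1b2 438 and 190 FPKM (0.433) and Eef1a1, which brings aminoacyl-tRNA to the ribosome, 5545 and 3283 FPKM (0.592). Eif5a2 was highest at 0.910, and its interval (0.759 to 1.09) included 1, as did that of Eef1a2 (0.230 to 2.47). Of 37 initiation genes 28 (75.7%) were lower, beside 49.4% of all genes above 0 in both libraries. With 0 past 2.0-fold in either direction, the median log2 ratio of the initiation list was −0.15. Its genes ran from Eif3g (101 and 56.9 FPKM, 0.566) to Eif5 (47.8 and 77.2 FPKM, 1.61).

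The list of mTOR and S6 kinase genes, which also holds Myc, Max and Mycn, had no common direction. Myc (ratio 0.671) and Max (0.757) were among its lower genes. Of 25 above 0 in both libraries, 10 were lower and 15 higher, 1 lower and 4 higher by at least 2.0-fold, with a median log2 ratio of 0.10. Mtor itself had 7.76 and 14.97 FPKM (1.93), Rps6kb1, the S6 kinase 1 gene, 13.5 and 15.8 FPKM (1.17), and Larp1 29.5 and 23.6 FPKM (0.799). Eif4ebp1, a translational repressor that mTOR inactivates, had 162 and 321 FPKM (1.98). The list ran from Rps6ka2, a kinase of the RSK family (14.3 and 4.74 FPKM, 0.331), to Deptor, an mTOR inhibitor (1.14 and 23.5 FPKM, 20.7). These are mRNA levels and say nothing of kinase activity.

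**Figure D5:**
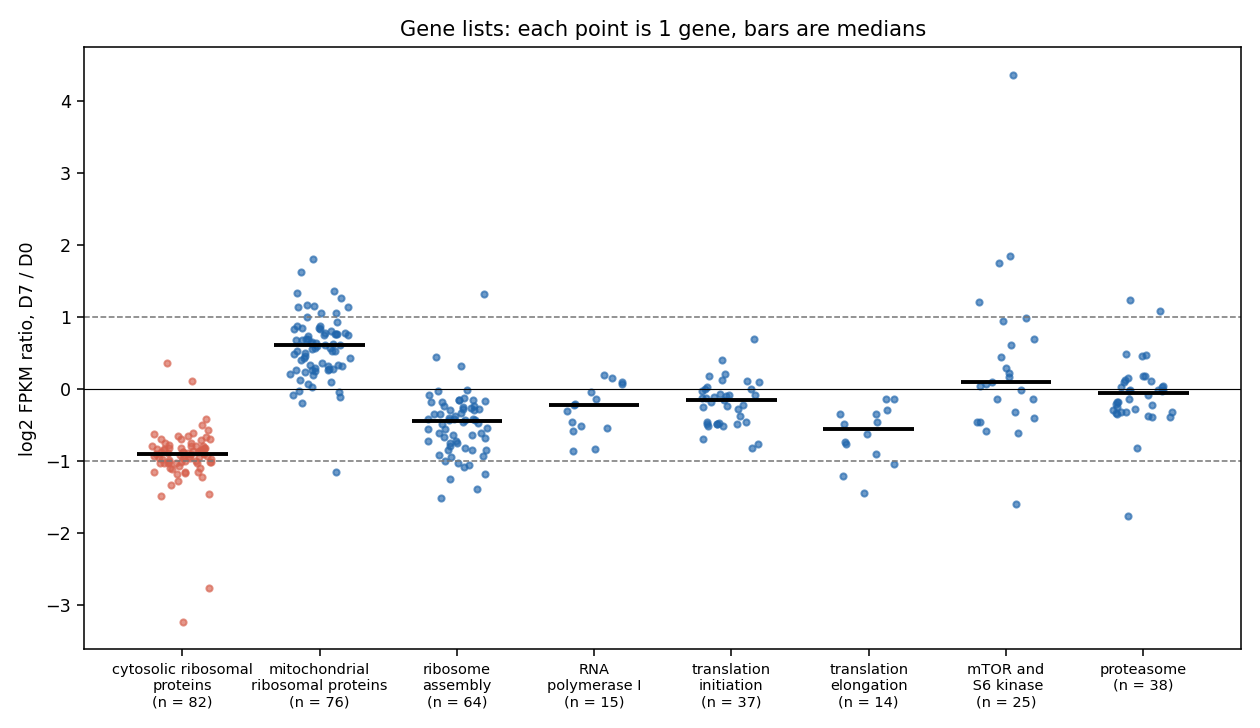
Log2 ratio of FPKM at D7 to D0 for genes above 0 in both libraries, 1 library per stage, in 8 gene lists. Points are genes, spread sideways at random for visibility, black bars are medians, and dashed lines mark 2.0-fold. The cytosolic ribosomal proteins (red) have their median at −0.90 and the mitochondrial ones at 0.61.

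Other features of the libraries differed together with the ribosomal proteins. All 7 proliferation genes were lower at D7, 6 by at least 2.0-fold, with a summed level of 103 FPKM at D0 and 46.5 FPKM at D7. Mki67 had 2.60 and 0.670 FPKM, and no gene of that list was at 0. All 9 macrophage genes had higher values at D7, and 8 passed 2.0-fold, with a summed level of 154 and 578 FPKM and none at 0. The exception, Cd14, had 4.81 and 5.08 FPKM, with an interval of the ratio (0.829 to 1.34) that includes 1. Lyz2 had 111 and 286 FPKM. Of 4 preadipocyte genes, Pdgfrb was lower (114 and 38.9 FPKM, ratio 0.340) and Cd34 higher (1.85 and 15.4 FPKM, ratio 8.29) by at least 2.0-fold. Ly6a, the most abundant of them, had 546 and 405 FPKM, and Pdgfra had 52.1 and 50.7 FPKM with an interval of the ratio (0.940 to 1.01) that includes 1. None was at 0, and the list summed to 714 and 510 FPKM. Of the brown adipocyte genes, 4 of 6, Ucp1 among them, were listed at 0 at D0, and their sum was 0.417 FPKM at D0 and 323 FPKM at D7. Endothelial genes summed to 0.995 and 2.32 FPKM. The muscle regulator Myod1 was listed at 0 in both libraries, and the muscle list summed to 45.4 and 1.79 FPKM, nearly all of it Acta1. Recovered denominators were 21471470 fragments at D0 and 18265702 at D7. The part of proliferation, macrophages and depth in the lower ribosomal protein levels was not tested.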

How the data were processed

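RNA-Seq of 1 D0 and 1 D7 library was used. The authors removed adaptor, low-quality, duplicate and rRNA reads and mapped the rest with SOAP2 to mm10 and to gene sequences, and the deposited FPKM values, 1 for each gene in each library, are theirs. The submitters' processing notes name Bowtie2 instead. Second-strand cDNA was degraded, but use of strand in counting is not given in the sources used here, so genes overlapping others are uncertain. Removal of duplicates before counting can lower the values of short, abundant transcripts such as these.

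Of 27324 rows, 3963 had no value. Each gene above 0 in both libraries was given the plain quotient of its deposited FPKM, D7 over D0, with no pseudocount or rescaling, and called at 2.0-fold. This called 1980 genes lower and 2767 higher, whereas the study reported more genes lower than higher at that fold. The calls here are therefore not those of the study. Fragments were recovered from 600 single-exon genes. With 179 bp (D0) and 182 bp (D7) taken from each length, 100% of the 79 and 90 values at or below 20 fragments fell within 0.1 of a whole number. Other lengths came from the shortest best-supported coding transcript of GENCODE M21, which makes their fragment numbers approximate. The intervals were exact Clopper-Pearson at 95%, and the limit is 3 fragments. The intervals and limits leave out PCR effects. The scripts were tested on simulated counts with counting noise but no variation between cultures, so the test covers arithmetic and counting error alone.

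The members and lists were chosen with earlier results of these data known. Named were the 5 highest levels, the 5 lowest and 5 highest ratios at 10 FPKM or more, every member past 2.0-fold or at 0, paralogs, stalk, fusion genes, Rpsa, Rps6, Rps19, Rpl5, Rpl11 and reference genes, and in other lists the extremes and up to 4 others at 1 FPKM or more. Members just past the threshold, Rps9, Rpl7a and the members with little sharing were named after their values were seen. Alternatives were pseudocounts, filters, scalings, summed rows and a 1.5-fold threshold. The software was scipy 1.17.1, pandas 2.3.3 and numpy 2.4.6 under Python 3.11.15, with matplotlib 3.10.9 for the plots. A few genes are not reported here by name and are left out of the plots that label genes, while counts and medians include them.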

Additional observations from a re-analysis of the deposited data

Results flagged for a closer look

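Rows named for intronless copies or pseudogenes of ribosomal protein genes lay outside the naming pattern and held values above the limit of 3 fragments. The 4 that carry the locus of a member held Gm9846 at 1923 and 1082 FPKM, Gm15772 at 1595 and 912 FPKM, Gm12191 at 1053 and 594 FPKM and Rpl34-ps1 at 1563 and 794 FPKM at D0 and D7. Rpl31-ps12 stood at 12.7 FPKM at D0 and 5.80 FPKM at D7, and Rps15a-ps6 at 3.39 and 2.13 FPKM. Rps19-ps3 passed the limit only at D7, with 2.24 FPKM. Whether the reads in these rows came from the copies or from the parent genes was not tested.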

How the results depend on the processing

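The median log2 ratio of the ribosomal protein genes was −0.90. It was −0.93 after rescaling to TPM, −1.004 after division by the median gene, −0.95 by the upper quartile, −0.92 with a trimmed mean of log ratios and −1.26 with a floor of 0.01 and division by the library median. Apart from values under 0.01 FPKM, which the floor raises, these scalings shift every gene alike. The last shifted genes by −0.35 and the others by at most −0.10. Chosen after seeing the data, adding the 4 copy rows gave −0.89, and keeping members with under 10% of windows shared gave −0.86 over 11 members, of which 10 were lower at D7 and 4 by at least 2.0-fold. Pseudocounts, filters on FPKM and summed rows moved the median by less than its counting interval. The count of 26 lower by at least 2.0-fold became 42 with the median gene, 75 with the floor and library median, and 77 at a threshold of 1.5-fold. Under the other alternatives run, that count was from 23 to 33, no member was higher by at least 2.0-fold under any, and at least 79 members were lower at D7 in each alternative that kept 81 or more. The share of the summed FPKM was 18.4% at D0 and 9.52% at D7. As an approximate share of fragments it was 6.10% and 3.14%, with the 10 highest other genes left out 19.7% and 10.6%, and with the copy rows 19.6% and 10.2%. Over 86 ribosomal genes and 7 alternatives, 84 stayed under 1, Rpl22l1 stayed over 1, and Rpl39l crossed 1. With the floor and library median, Rpl22l1 had a ratio of only 1.006, below its counting interval.

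No library could be left out with 1 per stage. No paired analysis was possible because each stage has 1 library. Depth limits Rps27, with about 18 fragments at D7, and Rpl3l and Rpl10l, whose levels were at or under 3 fragments.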
